A study of Mus musculus with 8 samples.

Results

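Transcripts of the insulin-like growth factor (IGF) system were examined in C2C12 cells, a mouse myoblast line, depleted of Fam129b by siRNA. The members were 10 genes chosen by symbol: the ligands Igf1 and Igf2, the noncoding RNA H19, the receptors Igf1r and Igf2r, and the binding proteins Igfbp2, Igfbp3, Igfbp4, Igfbp5 and Igfbp6. Of these, 9 were found by symbol among the 21879 genes of the table and 7 had a mean of at least 1 FPKM, the level needed to enter the test. H19 had no row under its symbol or an older one and was not analysed here. FPKM counts fragments per kilobase of gene, scaled to the depth of the library.

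The data were 4 libraries from cells transfected with siFam129b (labelled siFAM129B), an siRNA against Fam129b, and 4 from cells transfected with siNC, the control siRNA. All 8 samples carried the label of muscle differentiation; no other allele or agent is named. Per the labels' protocols, growth medium held 10% fetal bovine serum and differentiation medium 2% horse serum, siRNA was delivered with Lipofectamine RNAiMAX, and polyadenylated mRNA was sequenced. The time in differentiation medium is not given in the sources used here, and it is not stated whether a group's 4 libraries were made from different cultures. The p-values therefore reflect the spread of these samples alone, part or all of which may be technical. The study asked how Fam129b acts in skeletal muscle atrophy.

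IGF1 and IGF2 are secreted growth factors that signal through the IGF1 receptor, a tyrosine kinase upstream of PI3K and AKT, and promote both proliferation and differentiation of myoblasts. The IGF2 receptor binds IGF2 and carries it to lysosomes for breakdown, and the binding proteins hold both ligands outside the cell, where proteases release them. In C2C12 cells, autocrine Igf2 and secreted Igfbp5 are known to increase as myoblasts differentiate. Igf2 and H19 are neighbouring imprinted genes expressed from opposite parental chromosomes.

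Whole reads recovered from the FPKM values came to between 31466869 and 36031688 per library. Fam129b stood at 91.6, 87.0, 87.3 and 128 FPKM in siFam129b libraries 1 to 4, against 154, 163, 179 and 175 FPKM in siNC libraries 1 to 4. Its groups did not overlap (exact permutation p = 0.0286, two-sided, the lowest possible among the 70 assignments of 4 and 4 libraries), while limma gave a log2 difference of -0.78 with an adjusted p of 0.784. Without siFam129b library 4 the limma difference was -0.91 and passed, at an adjusted p of 0.00176, and over the 18 alternatives Fam129b passed in 4. Among siFam129b libraries, the fourth stood apart: among tested genes its log2(FPKM + 1) exceeded the mean of siFam129b libraries 1 to 3 by a median of 0.46 in the shortest 20% of genes and lay below it, at a median of -0.58, in the longest 20%. Libraries also differed by number in both groups, with 1221 of 11025 tested genes (11.1%) higher, and 1214 (11%) lower, in all 4 libraries numbered 1 and 2 than in all 4 numbered 3 and 4, a split that the labels do not name. All 6 fixed myoblast markers, Myod1 and Des among them, reached 1 FPKM in at least 1 library, as did 6 of the 7 myotube markers found in the table. Averaged over the 8 libraries, the myoblast markers ran from 11.7 FPKM (Myf5) to 227 FPKM (Des). The myotube markers ran from 0.298 FPKM (Ckm) to 7.28 FPKM (Myog), and Myh3 reached 1 FPKM only in siNC libraries 1 and 2. The proliferation genes Mki67 and Top2a averaged 78.7 and 155 FPKM. Macrophage, endothelial, neural, epithelial, adipocyte and osteoblast or chondrocyte markers were near the floor except Cd68, Fabp4 and Sox9. Epcam, Adgre1, Snap25, Lep, Cidec, Ibsp and Acan were at 0. Averaged over the 8 libraries, Cd68 was at 3.02 FPKM, Fabp4 at 0.735 FPKM and Sox9 at 16.7 FPKM. Sox9 was thus above Myf5 and above every myotube marker.

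No member passed an adjusted p of 0.05 in limma, fitted to log2(FPKM + 1) over all 11025 genes, where 0 genes (0%) passed. At an unadjusted p under 0.05 there were 0 of the 7 tested members, against 274 of all tested genes (2.49%; 1.78% higher and 0.707% lower with siFam129b). The voom method, run on recovered reads, gave 0 genes past the adjusted threshold and 254 past 0.05 before adjustment. Of the 7 members 3 had a log2 difference above 0 and 4 below, with a median of -0.015, beside a median of 0.003 over all tested genes. The transcripts of the binding proteins Igfbp2, Igfbp5 and Igfbp6 were the most abundant of the system. Averaged over the 8 libraries, Igfbp2 stood at 384 FPKM, Igfbp5 at 354 FPKM and Igfbp6 at 254 FPKM, the 118th, 141st and 213th highest of 16479 genes with a value. Next came Igf2r at 21.4 FPKM and Igfbp4 at 18.5 FPKM, then Igf1r at 8.42 FPKM and Igfbp3 at 7.57 FPKM. The ligands were last, Igf2 at 0.152 FPKM and Igf1 at 0.141 FPKM. Within each of these 4 levels the ranges over libraries overlapped. Compared within a library, Igfbp2 exceeded Igfbp6 in all 8, whereas the order of Igfbp5 against either of them, of Igf2r and Igfbp4, of Igf1r and Igfbp3, and of Igf2 and Igf1 varied between libraries. Igfbp4 in siNC library 4 also lay within the range of Igf1r. All other members exceeded both ligands in every library.

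**Figure D1:**
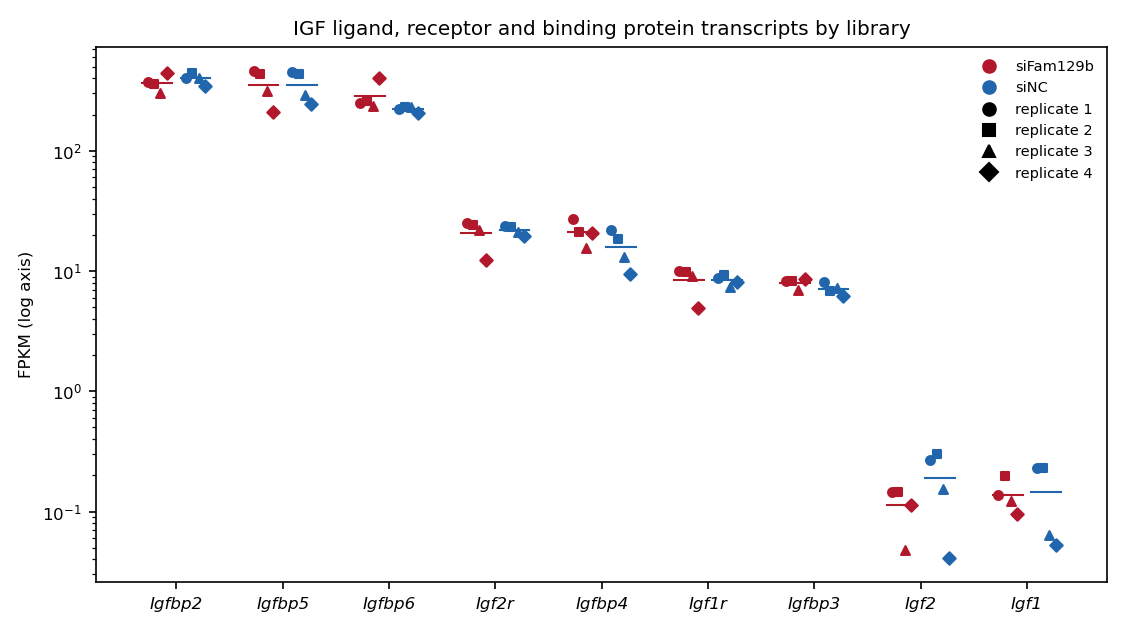
FPKM (log axis) of the 9 measured members in each library, siFam129b left of siNC, with a marker shape for each replicate number and a line at each group mean (n = 4 each). Igfbp2, Igfbp5 and Igfbp6 were at 208 FPKM or more in every library, the ligands Igf1 and Igf2 at 0.299 FPKM or less.

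Ligand transcripts were scarce in both groups. Igf2, the autocrine growth factor of differentiating myoblasts, had 16, 16, 6 and 13 reads in siFam129b libraries 1 to 4, against 32, 36, 18 and 5 reads in siNC libraries 1 to 4. On the level scale these were 0.146, 0.145, 0.0477 and 0.114 FPKM with siFam129b and 0.266, 0.299, 0.155 and 0.0410 FPKM with siNC. siNC libraries 1 and 2 were the highest and siNC library 4 the lowest of all, so the groups overlapped, and the exact two-sided permutation p on log2(FPKM + 1) was 0.229. The counting error alone was wide: the 16 reads of siFam129b library 1 allow 0.0833 to 0.237 FPKM (exact Poisson 95% interval) and the 5 reads of siNC library 4 allow 0.0133 to 0.0957 FPKM.

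Igf1, whose product is the main circulating ligand and a local growth signal in muscle, had 30, 44, 31 and 22 reads with siFam129b, against 55, 56, 15 and 13 reads with siNC. Its levels were 0.136, 0.198, 0.123 and 0.0960 FPKM with siFam129b and 0.228, 0.232, 0.0642 and 0.0531 FPKM with siNC. The siFam129b libraries lay inside the siNC range, and the exact two-sided permutation p was 1. In siNC the mean of libraries 1 and 2 was 3.92 times that of libraries 3 and 4 for Igf1 and 2.89 times for Igf2, while with siFam129b it was 1.53 times and 1.80 times. With siFam129b the mean was 0.726 of the siNC mean in libraries 1 and 2 for Igf1 and 1.86 times the siNC mean in libraries 3 and 4, so the direction differed between the library numbers, a difference that was not tested. For Igf2 it was 0.513 in libraries 1 and 2 and 0.825 in libraries 3 and 4. Myotube markers moved with this split: the 7 markers summed to 27.3, 28.1, 12.3 and 16.8 FPKM in siFam129b libraries 1 to 4, against 50.5, 49.3, 26.4 and 18.6 FPKM in siNC libraries 1 to 4. At each number the sum was lower with siFam129b, though the group ranges overlapped. Among these markers Myog had a log2 difference of -0.98 ± 0.42 (SE; limma adjusted p = 0.784). With a covariate for the split and without siFam129b library 4, Myog and Acta1 passed (limma adjusted p = 0.0227 and 0.0142). The part of the myotube markers in the ligand values was not tested. In RNA from whole cultures, fewer cells of a type and less RNA per cell cannot be told apart. Both ligand genes overlap antisense genes, Igf1os and Igf2os, and strand use in the counting is not given, so reads from either strand may be included.

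Neither receptor passed the test, and siFam129b library 4 was the lowest library for both. Igf1r, the signalling receptor, stood at 9.94, 9.79, 9.10 and 4.91 FPKM in siFam129b libraries 1 to 4, against 8.77, 9.28, 7.39 and 8.17 FPKM in siNC libraries 1 to 4. siFam129b libraries 1 and 2 were above every siNC library and library 4 was below every one. The log2 difference was -0.03 ± 0.19 (SE), with a 95% interval of -0.47 to 0.40 (limma adjusted p = 0.954). Without library 4 it was 0.18 ± 0.08 (SE; limma adjusted p = 0.87).

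Igf2r, the clearance receptor for IGF2, stood at 25, 23.9, 22.1 and 12.3 FPKM with siFam129b, against 23.8, 23.3, 21.1 and 19.7 FPKM with siNC. The first 3 siFam129b libraries lay within or just above the siNC range, and the fourth at 0.519 of their mean. Its log2 difference was -0.12 ± 0.20 (SE), with an interval of -0.57 to 0.33 (limma adjusted p = 0.847), or 0.11 ± 0.08 (SE) without library 4 (limma adjusted p = 0.87). Igf2r was also higher in all libraries numbered 1 and 2 than in all numbered 3 and 4, as was Igfbp5, 2 of 7 members, beside 11.1% of all tested genes. The antisense gene Airn overlaps Igf2r, with the same limit on strand.

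Within a library the receptors kept nearly the same proportion. The FPKM ratio of Igf2r to Igf1r was 2.51, 2.45, 2.43 and 2.51 in siFam129b libraries 1 to 4, against 2.72, 2.51, 2.86 and 2.40 in siNC libraries 1 to 4. siFam129b library 4, low for both receptors, did not stand apart in this ratio. Insr, the insulin receptor, which can pair with the IGF1 receptor in hybrids, was at 3.32 FPKM in siFam129b library 4 and between 7.69 and 9.56 FPKM in every other library. The Igf1r to Insr ratio was therefore 1.48 in that library, against 0.939 to 1.11 in the other libraries.

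In siFam129b library 4 the long members were low and the short ones high. Lengths implied by FPKM and reads were 11745 bases for Igf1r, 8939 for Igf2r and 5861 for Igfbp5, all in the longest 20% of tested genes, and library 4 differed from the mean of siFam129b libraries 1 to 3 by -0.84, -0.89 and -0.91 on the log2(FPKM + 1) scale. Igfbp6, of 1291 bases, and Igfbp2, of 1133 bases, were in the shortest 20% and lay 0.69 and 0.36 above. Igfbp3 and Igfbp4, of intermediate length, lay 0.12 and 0.001 above. Tested genes of the same length classes had medians of 0.46 in the shortest class and -0.58 in the longest, and the part of length in the member values was not tested.

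**Figure D2:**
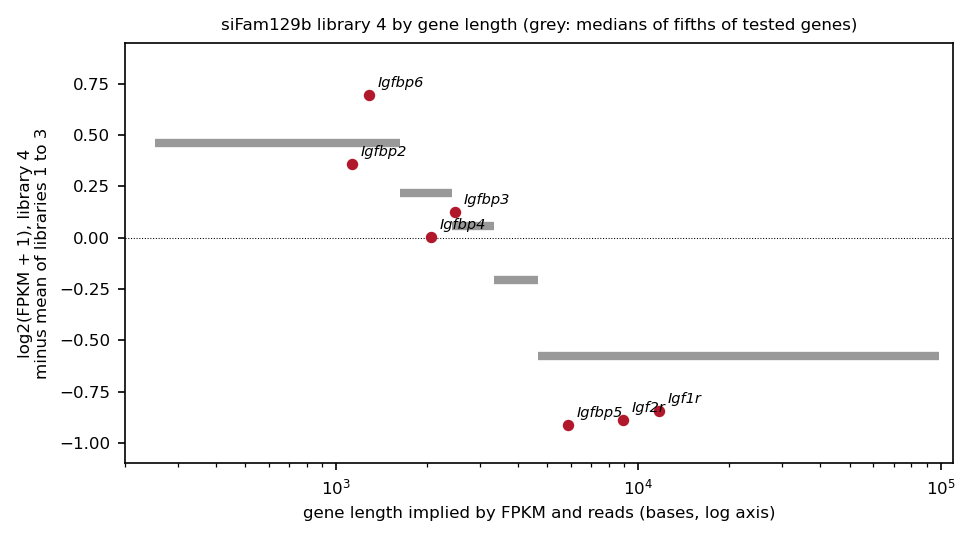
Difference of siFam129b library 4 from the mean of siFam129b libraries 1 to 3 on the log2(FPKM + 1) scale (vertical axis), against gene length implied by FPKM and reads (log axis, bases). Red points are the 7 tested members and grey bars the medians of all tested genes in 5 classes of length, which ran from 0.46 in the shortest to -0.58 in the longest, with Igf1r, Igf2r and Igfbp5 at the lower right.

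Because the binding protein transcripts carried nearly all of the family's signal, the promoters of the abundant ones and of Igfbp4 are shown. Windows from RefSeq (build GRCm38.p6, not the mm9 of the deposited values, so the coordinates serve only to place the sequences) ran from 250 bases before to 50 after each gene's start, 5′ to 3′ on the gene's strand. RefSeq held 13 windows for 9 of the 10 members, 4 of them for Igf2. Capitals mark matches on either strand to a TATA box (TATAAA), an E-box of the type bound by myogenic factors (CAGCTG) or a GC box (GGGCGG).
Igfbp2, chr1:72824230-72824529, plus strand: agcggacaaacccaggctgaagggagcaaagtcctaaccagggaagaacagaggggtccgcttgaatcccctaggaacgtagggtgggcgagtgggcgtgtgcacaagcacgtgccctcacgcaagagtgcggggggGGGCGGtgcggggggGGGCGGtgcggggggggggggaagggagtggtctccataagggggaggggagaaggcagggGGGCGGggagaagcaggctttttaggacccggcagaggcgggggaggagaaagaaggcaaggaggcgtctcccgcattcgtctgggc
Igfbp5, chr1:72874816-72875115, minus strand: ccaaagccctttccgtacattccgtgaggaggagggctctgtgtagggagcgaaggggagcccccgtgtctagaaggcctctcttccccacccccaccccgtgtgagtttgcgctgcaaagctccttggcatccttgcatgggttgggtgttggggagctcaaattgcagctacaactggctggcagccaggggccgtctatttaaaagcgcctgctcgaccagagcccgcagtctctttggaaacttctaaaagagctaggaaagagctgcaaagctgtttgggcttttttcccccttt
Igfbp6, chr15:102143936-102144235, plus strand: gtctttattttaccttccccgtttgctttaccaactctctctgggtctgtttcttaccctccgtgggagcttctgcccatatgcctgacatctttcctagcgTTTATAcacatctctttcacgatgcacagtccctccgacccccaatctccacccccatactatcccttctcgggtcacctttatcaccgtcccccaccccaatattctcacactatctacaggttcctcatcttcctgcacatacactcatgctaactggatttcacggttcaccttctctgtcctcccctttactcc
Igfbp4, chr11:99040994-99041293, plus strand: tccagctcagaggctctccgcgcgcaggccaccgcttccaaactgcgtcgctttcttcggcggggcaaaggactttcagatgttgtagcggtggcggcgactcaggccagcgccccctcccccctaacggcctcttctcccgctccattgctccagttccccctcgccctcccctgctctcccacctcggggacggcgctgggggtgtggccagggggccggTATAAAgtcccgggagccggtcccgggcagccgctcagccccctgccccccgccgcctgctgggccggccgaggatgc
The Igfbp2 window, the first of its 2, held 3 GC boxes, at -113, -98 and -37 from the start, and no TATA box. The Igfbp4 window held a TATA box at -28, the Igfbp6 window the letters of one on the opposite strand at -148, and the Igfbp5 window none of the 3 motifs. Of 32851 RefSeq promoter windows of the same length, 35.7% held a GC box, 13.6% a TATA box and 16.3% this E-box. GC content was 67.0% for Igfbp2 and 71.3% for Igfbp4, beside 56.3% for Igfbp5 and 49.7% for Igfbp6, with a median of 52.7% over all windows. None of the 3 motifs was in all 4 windows. Igfbp2 and Igfbp5 are next to each other on chromosome 1 in RefSeq.

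Igfbp6, which binds IGF2 with much higher affinity than IGF1, was the member whose groups did not overlap. It stood at 250, 258, 234 and 401 FPKM in siFam129b libraries 1 to 4, against 222, 231, 229 and 208 FPKM in siNC libraries 1 to 4. Every siFam129b library was above every siNC library, by a narrow margin for library 3 and a wide one for library 4. Such a separation in the higher direction was seen for 1 of 7 tested members and for 210 of all tested genes (1.9%), and in the lower direction for 0 members and 161 genes (1.46%). The log2 difference was 0.33 ± 0.16 (SE), with an interval of -0.03 to 0.68 (limma adjusted p = 0.784). Without siFam129b library 4 the mean was 247 ± 11.9 FPKM (SD, n = 3), against 223 ± 10.4 FPKM (SD, n = 4) in siNC, and the difference 0.15 ± 0.05 (SE; limma adjusted p = 0.87). The groups still did not overlap; without that library 359 tested genes (3.26%) did not overlap in the higher direction and 284 (2.58%) in the lower.

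Igfbp2, the most abundant member and a carrier of both ligands that also binds integrins, was lower in siFam129b libraries 1 to 3 than in siNC libraries 1 to 3. It stood at 372, 361, 303 and 441 FPKM with siFam129b, against 406, 447, 400 and 345 FPKM with siNC. The groups overlapped through siFam129b library 4, which was among the highest, and siNC library 4, which was among the lowest. The log2 difference was -0.12 ± 0.13 (SE), with an interval of -0.41 to 0.17 (limma adjusted p = 0.785), and it depended on single libraries. It was -0.21 ± 0.10 (SE; limma adjusted p = 0.87) without siFam129b library 4, -0.029 ± 0.12 (SE; limma adjusted p = 0.912) without siFam129b library 3 and -0.063 ± 0.14 (SE; limma adjusted p = 0.905) without siNC library 2. In libraries 1 and 2 the siFam129b mean was 0.859 of the siNC mean and in libraries 3 and 4, which include siFam129b library 4, it was 0.999.

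Set against each other within a library, these similarly short transcripts separated the groups. The FPKM ratio of Igfbp2 to Igfbp6 was 1.49, 1.40, 1.29 and 1.10 in siFam129b libraries 1 to 4, against 1.83, 1.93, 1.74 and 1.66 in siNC libraries 1 to 4. Its means were 1.32 ± 0.167 with siFam129b and 1.79 ± 0.118 with siNC (SD, n = 4 each), and every siFam129b library was below every siNC library, with or without library 4. The ratio was picked after its values were seen, so no test is given. It was 1 of 21 ratios between tested members and the only one whose groups did not overlap, beside 3.25% of all pairs of tested genes and 3.56% of pairs within the shortest 20% of genes. Read against those shares, 1 of 21 is no result about the members. A ratio shows unequal levels of the pair and not which of them differed.

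**Figure D3:**
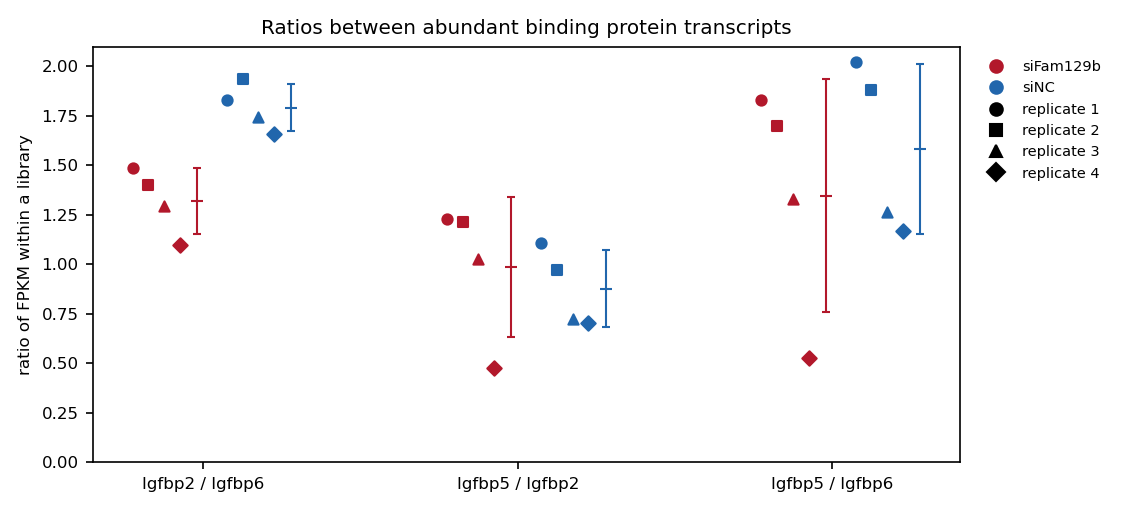
Ratio of FPKM between pairs of abundant binding protein transcripts in each library, siFam129b left of siNC, with the mean and SD beside the points (n = 4 each). Igfbp2 to Igfbp6 lay between 1.10 and 1.49 with siFam129b and between 1.66 and 1.93 with siNC, while both ratios with Igfbp5 overlapped between the groups.

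Igfbp5, the binding protein induced during myoblast differentiation and able to attach to extracellular matrix, differed by library number in both groups. It stood at 458, 438, 312 and 210 FPKM in siFam129b libraries 1 to 4, against 449, 434, 289 and 244 FPKM in siNC libraries 1 to 4. Libraries 1 and 2 of both groups were all above libraries 3 and 4 of both, and the groups overlapped throughout. The means were 355 ± 116 FPKM with siFam129b and 354 ± 103 FPKM with siNC (SD, n = 4 each), a log2 difference of -0.02 ± 0.28 (SE; limma adjusted p = 0.985). The interval of -0.64 to 0.61, from the fit that leaves out library number, does not bound the difference tightly. Fits to all 8 libraries that included library number gave narrower intervals around the same difference. The interval was -0.31 to 0.28 with a covariate for libraries 1 and 2 against 3 and 4 (limma adjusted p = 0.954). It was -0.23 to 0.20 with each replicate number as a block (limma adjusted p = 0.942). By library number, the siFam129b mean was 1.02 times the siNC mean in libraries 1 and 2 and 0.980 of it in libraries 3 and 4. The mean of libraries 1 and 2 was 1.72 times that of libraries 3 and 4 with siFam129b and 1.66 times with siNC. Myotube markers also ran higher in libraries 1 and 2 of each group, as given for the ligands, and their part in the Igfbp5 values was not tested.

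Igfbp4, an inhibitor of IGF action until it is cleaved by the protease PAPP-A, had the highest log2 difference among the tested members. It stood at 27.0, 21.3, 15.6 and 20.8 FPKM with siFam129b, against 21.9, 18.6, 13 and 9.49 FPKM with siNC. siFam129b library 1 was above every siNC library, siNC libraries 3 and 4 were below every siFam129b library, and the others interleaved. The means were 21.1 ± 4.66 FPKM with siFam129b and 15.8 ± 5.57 FPKM with siNC (SD, n = 4 each), a log2 difference of 0.44 ± 0.25 (SE) with an interval of -0.12 to 1.00 (limma adjusted p = 0.784). The difference was 0.24 without siNC library 4 and 0.61 without siNC library 1. Fits to all 8 libraries that included library number kept the difference at 0.44 with a smaller error. A covariate for libraries 1 and 2 against 3 and 4 gave an unadjusted interval of 0.08 to 0.80 (limma adjusted p = 0.673). Each replicate number as a block gave 0.04 to 0.84 (limma adjusted p = 0.703), so neither fit passed. In libraries 1 and 2 the siFam129b mean was 1.19 times the siNC mean, and in libraries 3 and 4 it was 1.62 times. siFam129b library 4 lay at 0.978 of the mean of siFam129b libraries 1 to 3, so this value did not turn on it.

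Igfbp3, the main carrier of IGF1 in serum, had the lowest mean of the binding protein members. It ranked 7879th of 16479 genes with a value, near the middle. It stood at 8.30, 8.27, 6.90 and 8.59 FPKM with siFam129b, against 8.13, 6.88, 7.22 and 6.23 FPKM with siNC. All but siFam129b library 3 were above every siNC library, and the log2 difference was 0.15 ± 0.11 (SE), with an interval of -0.09 to 0.40 (limma adjusted p = 0.784).

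Summed over Igfbp2 to Igfbp6, binding protein transcripts amounted to 1116, 1086, 872 and 1081 FPKM in siFam129b libraries 1 to 4, against 1106, 1138, 939 and 812 FPKM in siNC libraries 1 to 4. The sums overlapped, and no test is given for a sum over members. Igfbp5 made up 41.0, 40.3, 35.8 and 19.5% of the sum with siFam129b, against 40.5, 38.2, 30.8 and 30.0% with siNC. Igfbp6 made up 22.4, 23.7, 26.9 and 37.1% with siFam129b, against 20.1, 20.3, 24.4 and 25.6% with siNC. The share of Igfbp6 was thus higher in libraries 3 and 4 of each group and the share of Igfbp5 lower.

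**Figure D4:**
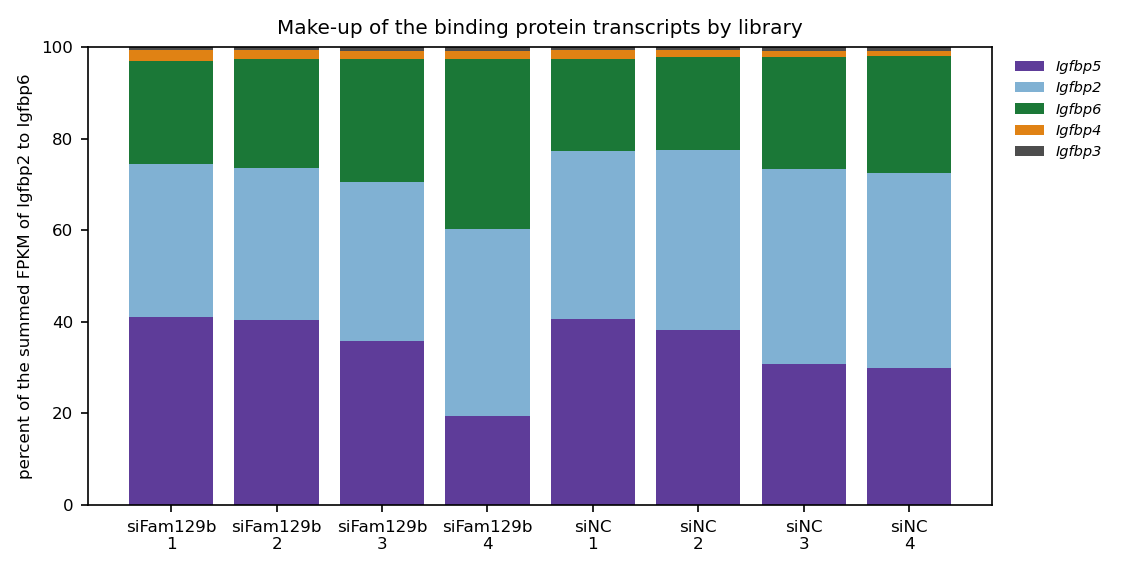
Percent of the summed FPKM of Igfbp2 to Igfbp6 taken by each transcript, one stacked bar per library, siFam129b left of siNC. siFam129b library 4 had the smallest share of Igfbp5 (19.5%) and the largest of Igfbp6 (37.1%).

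The wider IGF pathway list held 24 genes that are not members, of which 6 were at 0 in every library and 12 were tested. None passed, with 6 above and 6 below 0 and a median log2 difference of -0.003, beside 0.003 over all tested genes. At an unadjusted p under 0.05 there were 2, both higher with siFam129b, beside 196 of all tested genes (1.78%). That count was 0 with libraries rescaled to an equal sum. It was also 0 without siFam129b library 1, siFam129b library 2, siNC library 3 or siNC library 4. It was 1 without siFam129b library 4, 3 without siNC library 2, and 4 without siFam129b library 3, 3 of these higher. Over the 18 alternatives it ran from 0 to 5. The 5, all higher, came with a covariate for libraries 1 and 2 against 3 and 4 and without siFam129b library 4. Over all 11025 tested genes the count was 274 in the test reported. It was 762 without siFam129b library 3 and 1241 in the fit with that covariate. The 2 genes of the test reported were Htra1, a secreted serine protease that cleaves IGF binding proteins, and Igfbp7, a weak IGF binder. Htra1 stood at 92.5, 89.7, 76.5 and 98.5 FPKM with siFam129b, against 79.6, 78.6, 70.8 and 64.6 FPKM with siNC, a log2 difference of 0.28 ± 0.11 (SE; limma adjusted p = 0.784). Its groups overlapped through siFam129b library 3. Igfbp7 stood at 139, 127, 107 and 162 FPKM with siFam129b, against 114, 118, 101 and 77.8 FPKM with siNC, a log2 difference of 0.38 ± 0.16 (SE; limma adjusted p = 0.784), also with overlap.

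The other pathway genes with the smallest p were Grb14, an adaptor that inhibits the insulin receptor, at 0.41 ± 0.22 (SE), and Adam12, a metalloprotease that cleaves Igfbp3 and Igfbp5, at -0.27 ± 0.16 (SE), both on the log2 scale (limma adjusted p = 0.784 each). The docking proteins Irs1 and Irs2 averaged 26.1 ± 8.31 and 5.16 ± 1.42 FPKM with siFam129b, against 29.8 ± 2.85 and 5.75 ± 0.353 FPKM with siNC (SD, n = 4 each). Irs1 in siFam129b library 4 was at 14 FPKM, and it was between 26.3 and 33.0 FPKM in every other library. The pappalysins Pappa and Pappa2, which release IGF from binding proteins, stayed at or below 0.121 FPKM in every library. Ins1, Igfbp1, Igfbpl1, Irs4, Insrr and Adam28 were listed at 0 in all 8 libraries.

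**Figure D5:**
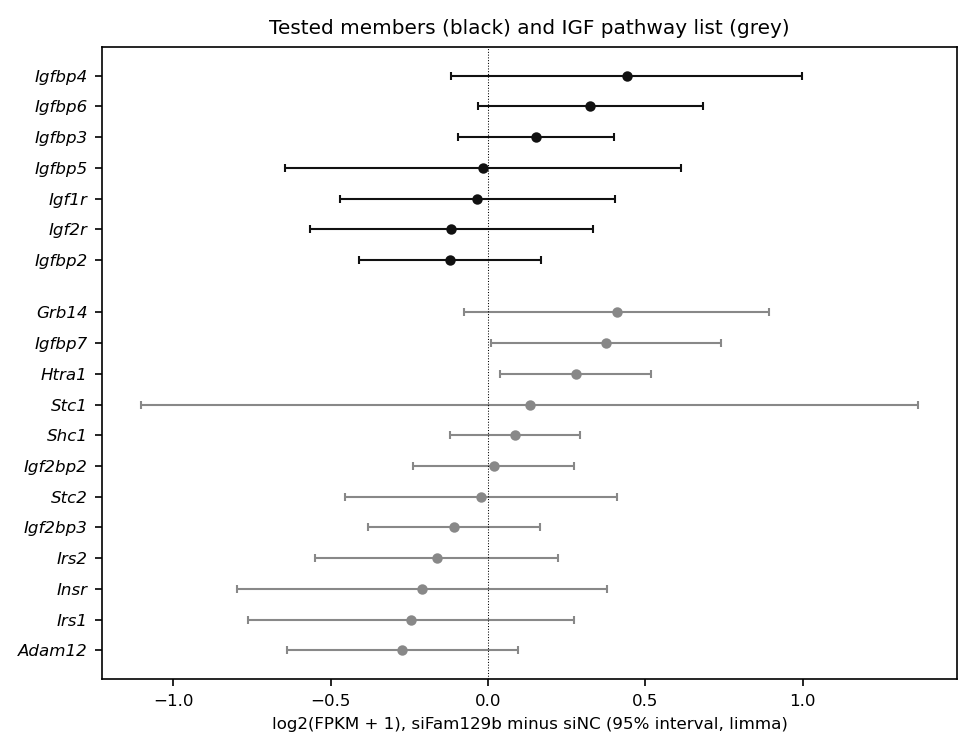
Log2 difference in FPKM + 1, siFam129b minus siNC, with the 95% interval from limma, for the 7 tested members (black) and the 12 tested genes of the IGF pathway list (grey). All member intervals include 0, and those of Htra1 and Igfbp7 lie above 0 before adjustment.

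The genes whose log2(FPKM + 1) followed a member most closely over the 8 libraries were ranked by Pearson correlation, as a description of libraries that share the number split and library 4. Igfbp5 was followed most closely by Socs2, an inhibitor of growth hormone signalling (r = 0.998), A4galt (0.997) and Enpp3 (0.997). Socs2 stood at 16.6, 16.3, 13.2 and 10.1 FPKM with siFam129b, against 16.5, 16.7, 12.3 and 10.9 FPKM with siNC. Those nearest to Igf1r were Siah1a, a ubiquitin ligase (0.993), Cdc40 (0.990) and Baz2a (0.989), and those nearest to Igfbp3 were Hsd17b11 (0.981), Fmnl3 (0.965) and Ctxn1 (0.956). Among members the closest pair was Igf1r and Igf2r (0.965), and Igf2r and Igfbp6 were the most opposed (-0.805).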

How the data were processed

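Messenger RNA of 8 C2C12 samples was analysed from 1 table of FPKM values deposited by the authors. The build is mm9, per the submitters' processing notes; which aligner, counter and annotation were used is not given. Columns were matched to samples by letter and replicate number in the titles (F to siFAM129B, N to siNC), although the descriptions of the siFAM129B samples carry another code. All values but those of 1 gene, Neat1, were ratios of whole reads within 0.001 of a read (16478 of 16479 genes with a value), and the smallest such whole numbers were taken as reads, so totals are lower bounds. The Poisson intervals of ligand reads cover counting error only, whereas the limma intervals rest on the spread between libraries.

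The log2(FPKM + 1) values, a scale that understates changes of low genes, were fitted in R 4.3.3 with limma 3.58.1 and its trend option. The fit took the 11025 genes averaging 1 FPKM or more, and p was adjusted over all of them (Benjamini-Hochberg, threshold 0.05). The script was tested on simulated data. The 18 alternatives comprised 8 fits without 1 library and 10 other fits. The members and lists, and the covariate for libraries 1 and 2 against 3 and 4, were chosen with earlier results of these data known. Named genes were all members, the 4 genes of each list with the smallest p and the 3 genes most correlated with a member; other list genes were named as examples. The planned Igf2 to H19 ratio was not computed.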

Additional observations from a re-analysis of the deposited data

Results flagged for a closer look

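Each value was set against the other libraries of its group, and 5 of 66 groups had 1 library far from the rest; chance gives about 1 in 20. In siFam129b library 4, Igf1r stood at 4.91 FPKM, Insr at 3.32 FPKM, Igfbp6 at 401 FPKM and Fam129b at 128 FPKM, each far from the other 3 siFam129b libraries. The low values were of long genes and Igfbp6 of a short one. Fam129b, of 3697 bases, fell in the second longest of the 5 length classes, whose median in library 4 was -0.20. It nevertheless stood at 1.45 times the mean of siFam129b libraries 1 to 3, and the part of length in these values was not tested. The summed FPKM of Igfbp2 to Igfbp6 was 872 in siFam129b library 3, below the other siFam129b libraries and inside the siNC range.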

How the results depend on the processing

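The count of members past the threshold was 0 in all 18 alternatives, as were those of the pathway and imprinted lists. Over all genes the count was 1 after quantile normalization, 2 with array weights, 5 with the covariate for libraries 1 and 2 against 3 and 4 and without siFam129b library 4, and 0 to 1 with single libraries left out (1 without siFam129b library 4). Fam129b was among the genes called in each of these 4 fits, at limma adjusted p of 0.0294, 5.14e-05, 1.15e-05 and 0.00176 in the order given. Genes at an unadjusted p under 0.05, 274 in the test reported, numbered between 125 and 1241. Members among them numbered at most 4 of 7, in the fit with the covariate and without siFam129b library 4. That same fit gave the 1241 of 11025 tested genes. The 4 members were Igfbp2 at -0.25 (limma adjusted p = 0.163), Igf1r at 0.15 (0.402), Igfbp4 at 0.32 (0.333) and Igfbp6 at 0.14 (0.293). Signs changed for 3 members near 0. Igf1r was at 0.030 after quantile normalization, 0.16 with array weights and 0.15 with that covariate and without library 4, and -0.12 to 0.18 with single libraries left out. Igf2r was at 0.084 with array weights and 0.078 with the covariate without library 4, and -0.22 to 0.11 with single libraries left out. Igfbp5 was at 0.18 with array weights and 0.11 with the covariate without library 4, and -0.18 to 0.21 with single libraries left out. siFam129b library 4 had an array weight of 0.0499; Igf1r also changed sign without siNC library 2. Igfbp2, Igfbp3, Igfbp4 and Igfbp6 kept their sign in all 18, Igfbp2 between -0.25 and -0.029. The replicate block called 0 genes, 0 members and 0 of either list. At an unadjusted p under 0.05 it had 305 of 11025 genes and 1 of 7 members, Igfbp4. The covariate for libraries 1 and 2 against 3 and 4, on all 8 libraries, also called 0 genes. At an unadjusted p under 0.05 that fit had 448 of 11025 genes and 1 of 7 members, again Igfbp4. Deviations of same-numbered libraries correlated at 0.531, 0.250, 0.0449 and 0.124, so the numbers were not taken as pairs, and not every library correlated best with its own number. Depth limits Igf1 and Igf2, at 5 to 56 reads per library.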

Other observations

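Igf2 and Igf2r are imprinted, and a list of other imprinted genes was looked at. Of 18 listed, 14 had a row, 2 of these were at 0 in every library and 8 were tested, with 3 above and 5 below 0 and 0 past the threshold (limma; 0 at an unadjusted p under 0.05). Cdkn1c, a cell cycle inhibitor, had a mean of 1.36 ± 0.104 FPKM in siFam129b cells and 1.07 ± 0.336 FPKM in siNC cells (SD, n = 4 each). Mest had means of 1.03 ± 0.313 FPKM in siFam129b cells and 1.33 ± 0.163 FPKM in siNC cells (SD, n = 4 each). Gnas, which encodes a stimulatory G protein subunit, stood at 444, 415, 368 and 578 FPKM with siFam129b and 413, 423, 373 and 343 FPKM with siNC. Peg10 had means of 10.6 ± 2.69 FPKM in siFam129b cells and 12.1 ± 0.900 FPKM in siNC cells (SD, n = 4 each). Peg3, an abundant imprinted zinc finger gene, was at 15.6 FPKM in siFam129b library 4 and between 39.0 and 50.6 FPKM in every other library.

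Stc1, a stanniocalcin that inhibits pappalysins, showed a wide range by library number: 19.4, 15.6, 7.63 and 3.57 FPKM in siFam129b libraries 1 to 4 and 17.9, 14.5, 5.20 and 4.08 FPKM in siNC libraries 1 to 4, with a log2 difference of 0.13 ± 0.55 (SE; limma adjusted p = 0.934). Its relative Stc2 ran the other way, at 2.53, 1.99, 2.94 and 3.68 FPKM with siFam129b and 1.91, 2.35, 3.41 and 3.83 FPKM with siNC.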
